A study of Mus musculus with 9 samples.

Results

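The genes described here form the core machinery of autophagy together with its cargo receptors. They were chosen by name, as 39 genes covering cargo receptors, ATG8 proteins, the ULK kinase complex, the class III phosphatidylinositol 3-kinase (PI3-kinase) complex, lipid supply and phosphoinositide effectors, the ubiquitin-like conjugation system, the ATG4 proteases and the MiT/TFE transcription factors. Of the 39 genes, 38 had a probe set that lists no other gene (Optn had none and is not analysed here), and where a gene had several the probe set with the highest mean over the arrays was used. These 38 stand among 19938 genes with such a probe set. A filter on dim probe sets left 36 of them among 12898 genes, and Atg4c and Atg10 did not pass it.

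Autophagy encloses cytoplasm in a double membrane, the autophagosome, and delivers it to the lysosome. The ULK complex starts the process, the PI3-kinase complex marks the site with the lipid phosphatidylinositol 3-phosphate (PI3P), and conjugation enzymes attach ATG8 proteins to the growing membrane, where cargo receptors bind them. In maturing red cells the pathway is known for clearing mitochondria and other organelles, and in beta-thalassemia unpaired alpha globin is known as one of its cargoes.

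RNA was measured on oligonucleotide arrays. The cells were fetal liver erythroblasts of stage E14.5 (embryonic day), sorted for CD71 and Ter119 on the surface and for high forward scatter, and 35 ng of RNA per sample was amplified. The groups were Th3/Th3 embryos, Th3/+ embryos and wild type embryos, with 3 arrays each, all offspring of Th3/+ parents on a 129SV background that had been crossed onto C57BL/6 for 9 generations. Th3 is a deletion of the adult beta-globin genes, so that Th3/+ embryos keep 1 intact copy of the locus and Th3/Th3 embryos none. Per the labels each sample is a biological replicate, but whether it came from 1 embryo or a pool is not given, so the p-values measure the spread between these samples. All values below are log2 signals, and a change is a difference of mean log2 signals with the standard error (SE) of the fit.

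The arrays of a genotype correlated at 0.986 to 0.994 (Spearman). On the second principal component (16.7% of the variance) Th3/Th3 replicate 1 and Th3/+ replicate 1 stood apart, at 25.5 and 20.5 against -14.9 to 7.7 for the other arrays. In each genotype the position on this component fell from replicate 1 to replicate 3. It was 25.5, -8.9 and -14.9 in Th3/Th3, 20.5, -10.1 and -13 in Th3/+, and 7.7, 5.2 and -12 in wild type. The brighter of the probe sets shared by the adult beta-globin genes held 9.47 ± 0.86 in Th3/Th3, 13.77 ± 0.03 in Th3/+ and 13.84 ± 0.03 in wild type (SD, n = 3 each), near the top of the scale in Th3/+ and wild type. Of 11 erythroblast markers tested, all past the filter, 9 fell in Th3/Th3 against wild type, and the mean over the markers lay at 10.28 to 10.51 per Th3/Th3 array and 11.07 to 11.19 per wild type array. The 14 macrophage markers averaged 4.47 to 4.55 in Th3/Th3 and 4.78 to 5.05 in wild type (summed linear signal 360 to 391 and 438 to 582), with 4 of them, Csf1r, Mrc1, Cd163 and Spic, below the filter, and 2 of the 10 tested fell. The 7 megakaryocyte markers averaged 6.37 to 6.52 and 6.65 to 6.92 (1 fell), and the 12 hepatoblast markers 6.21 to 6.45 and 6.23 to 6.45 (0 of 11 tested changed). Of the granulocyte and mast cell markers 0 of 6 tested changed, and of the endothelial and stromal markers 0 of 5 (limma, 0 of either list at an unadjusted p under 0.05). In sorted bulk samples, fewer cells of a type and less RNA per cell cannot be told apart, and the part of these shifts in the results below was not tested.

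In Th3/Th3 against wild type, 8 of the 36 autophagy genes tested rose and 1 fell, with 27 not past the test (limma, adjusted p under 0.05). Sqstm1, the gene of the cargo receptor p62, rose most (2.77-fold), followed by the conjugation enzyme genes Atg3 (2.14-fold) and Atg5 (1.89-fold), Atg101 of the ULK complex (1.78-fold), the PI3P effector Wdr45 and the ATG8 gene Gabarapl1 (1.71-fold each), and Map1lc3a and Atg12 (1.36-fold each). Atg4d, a protease that processes ATG8 proteins, fell 1.60-fold. Among all 12898 genes tested, 7.71% rose and 5.37% fell in this comparison, against 22.2% and 2.8% of the 36. The median change was 0.23 over the 36 genes and 0.00 over all genes, and 28 of the 36 had a positive change, as did 49.9% of all genes. These shares describe genes that were listed with earlier results known, and no test of the list was made.

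**Figure D1:**
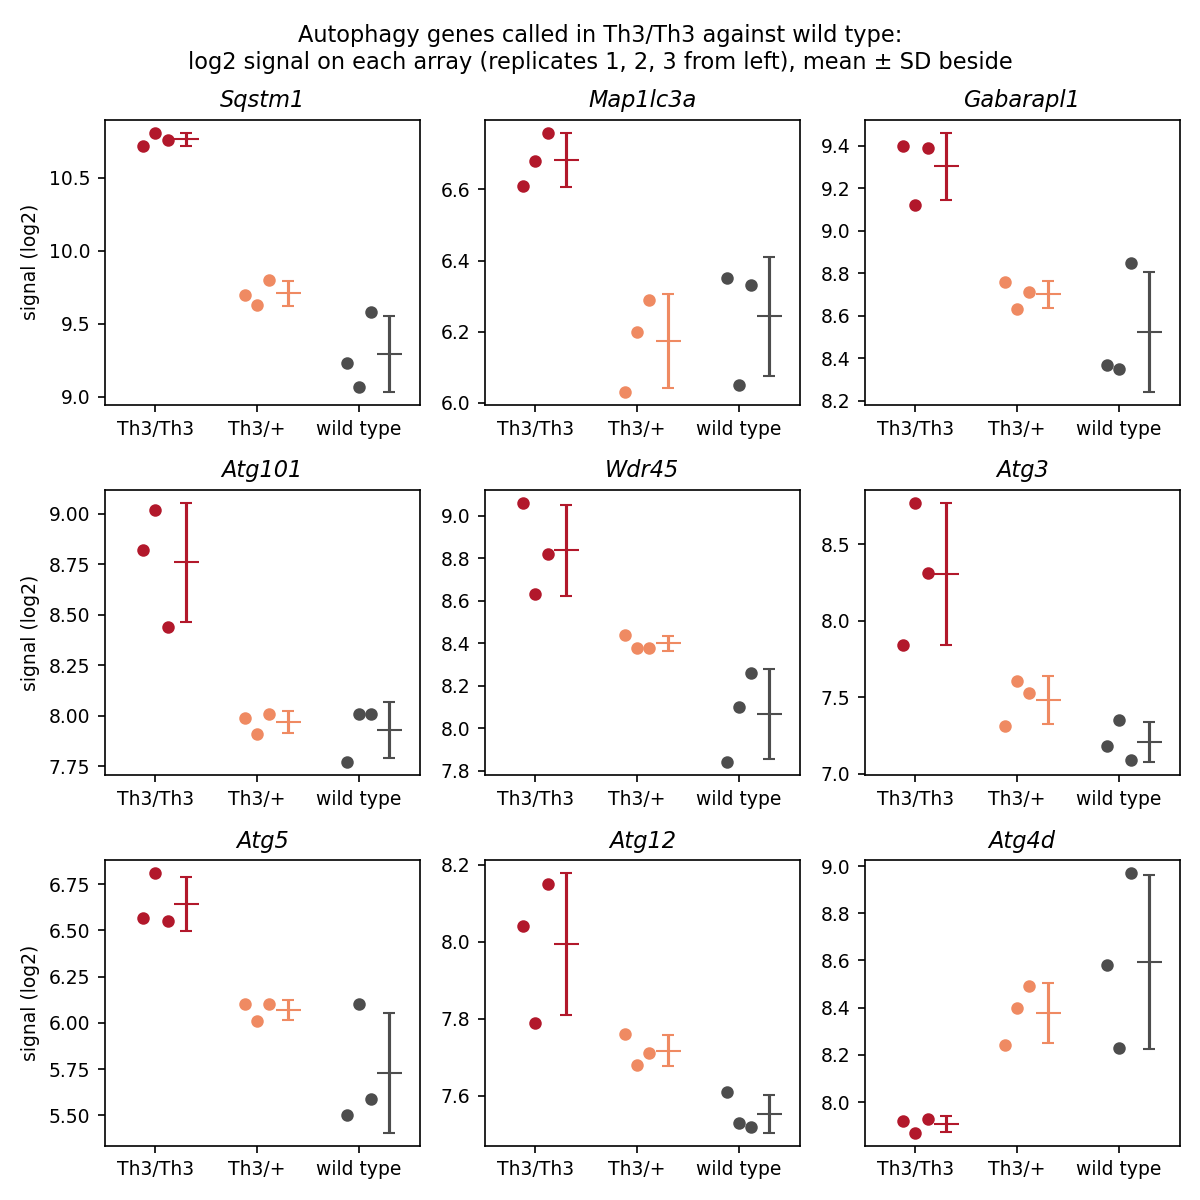
Log2 signal (vertical axis) of the 9 autophagy genes called in Th3/Th3 against wild type, on each array of Th3/Th3, Th3/+ and wild type erythroblasts. Points are arrays in replicate order, and the bar beside them is the mean ± SD of 3 arrays. The Th3/Th3 points lie above all wild type points in 8 panels and below them in the panel of Atg4d, and vertical axes differ between panels.

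Sqstm1 encodes p62, which binds ubiquitinated proteins, joins them to ATG8 proteins on the autophagosome membrane and also binds KEAP1, the inhibitor of NRF2. Its signal was 10.72, 10.81 and 10.76 in Th3/Th3, 9.70, 9.63 and 9.80 in Th3/+, and 9.23, 9.07 and 9.58 in wild type. The 3 genotypes did not overlap, and the spread was smallest in Th3/Th3 (SD 0.05) and largest in wild type (SD 0.26). Against wild type the gene rose by 1.47 in Th3/Th3 (SE 0.14, adjusted p = 0.000284, higher in 3 of 3 arrays), and against Th3/+ by 1.05 (SE 0.14, adjusted p = 0.00281). The Th3/+ arrays lay 0.42 above wild type (95% interval 0.11 to 0.72, unadjusted p = 0.0125, adjusted p = 1.00). Both calls of Sqstm1 held under all 20 alternatives run, with adjusted p of 0.000146 to 0.00353 against wild type and 0.00142 to 0.0218 against Th3/+. For genes with a single probe set, the alternative that picks the probe set by chromosome repeats the main fit.

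The other cargo receptors did not pass the test in Th3/Th3 against wild type. Nbr1, a ubiquitin-binding receptor related to p62, held 9.07 ± 0.24 in Th3/Th3, 9.30 ± 0.14 in Th3/+ and 8.97 ± 0.05 in wild type (SD, n = 3 each, difference of Th3/Th3 from wild type 0.11, adjusted p = 0.714). Tax1bp1, which recruits the ULK complex to ubiquitinated cargo, held 10.14 ± 0.23, 10.64 ± 0.16 and 10.36 ± 0.26 in the same order (difference -0.22, adjusted p = 0.466). Calcoco1, a receptor for turnover of the endoplasmic reticulum and Golgi, held 8.35 ± 0.27, 8.44 ± 0.09 and 8.17 ± 0.18 (difference 0.19, adjusted p = 0.537). For these receptors the 95% intervals of the difference from wild type reached from -0.58 (Tax1bp1) to 0.55 (Calcoco1), so a rise of the size seen for Sqstm1 lay outside each of them.

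ATG8 proteins are small ubiquitin-like proteins that are joined to a membrane lipid and hold cargo receptors on the autophagosome. Of their 5 genes, 2 rose and 0 fell in Th3/Th3 against wild type, where 7.71% and 5.37% of all genes tested did. Gabarapl1 held 9.40, 9.12 and 9.39 in Th3/Th3, 8.76, 8.63 and 8.71 in Th3/+, and 8.37, 8.35 and 8.85 in wild type. The Th3/Th3 arrays were above all others, and the gene rose by 0.78 against wild type (SE 0.16, adjusted p = 0.0127), a call lost without wild type replicate 1 or wild type replicate 2 (adjusted p = 0.0518 and 0.0524). Against Th3/+ the difference of 0.60 did not pass the test (adjusted p = 0.0550), but did under 5 of 20 alternatives, among them leaving out wild type replicate 3 (0.0279). Map1lc3a, an LC3 gene, held 6.61, 6.68 and 6.76 in Th3/Th3, 6.03, 6.20 and 6.29 in Th3/+, and 6.35, 6.05 and 6.33 in wild type. Its Th3/Th3 arrays did not overlap with either other genotype, while Th3/+ and wild type overlapped. It rose by 0.44 against wild type (SE 0.12, adjusted p = 0.0382) and by 0.51 against Th3/+ (SE 0.12, adjusted p = 0.0295). The call against wild type was lost under 11 of 20 alternatives, among them leaving out Th3/Th3 replicate 2 or 3 (adjusted p = 0.0890 and 0.102), Th3/+ replicate 2 or 3 (0.0643 and 0.0513) or wild type replicate 1, 2 or 3 (0.0580, 0.128 and 0.0670). The call against Th3/+ was lost under 8, among them leaving out Th3/Th3 replicate 2 or 3 (0.0778 and 0.0813) or Th3/+ replicate 1, 2 or 3 (0.0894, 0.0924 and 0.0508).

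The remaining ATG8 genes were not called. Gabarap held 11.93 ± 0.10 in Th3/Th3, 11.94 ± 0.01 in Th3/+ and 11.91 ± 0.04 in wild type (SD, n = 3 each), and its difference between Th3/Th3 and wild type lay between -0.12 and 0.17 (95% interval). Map1lc3b, the LC3 gene most used as an autophagosome marker, held 11.68 ± 0.08, 11.68 ± 0.13 and 11.46 ± 0.23 in the same order (difference of Th3/Th3 from wild type 0.22, adjusted p = 0.290). Gabarapl2 held 11.21, 10.93 and 10.85 in Th3/Th3, 11.33, 11.34 and 11.40 in Th3/+, and 11.15, 11.40 and 11.57 in wild type. On this probe set only Th3/Th3 replicate 1 reached into the wild type range, and the difference of -0.37 did not pass the test (SE 0.12, adjusted p = 0.0854). The difference passed under 5 of 20 alternatives (adjusted p of 0.0341 to 0.234 over all 20), among them leaving out Th3/Th3 replicate 1 or wild type replicate 1 (0.0341 and 0.0415).

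Of the members, 4 had 2 probe sets each, and for 3 of them the brighter probe set may not measure the gene itself. Around the brighter probe sets of Map1lc3b, Gabarapl2 and Atg4a, the neighbours in identifier order belong mostly to genes on chromosomes 14 (20 of 20), 5 (18 of 20) and 3 (19 of 20), whereas RefSeq places these genes on chromosomes 8, 8 and X. The other probe set of each gene has neighbours on the gene's own chromosome. Signal from near-identical copies elsewhere in the genome therefore cannot be told apart from the gene's own in these cases. The 2 probe sets of Map1lc3b differed by at most 0.03 on any array and those of Atg4a by at most 0.14, while those of Gabarapl2 lay 0.88 to 1.32 apart. On the probe sets of their own chromosomes, Th3/Th3 differed from wild type by 0.24 for Map1lc3b (adjusted p = 0.223), by -0.45 for Gabarapl2 (adjusted p = 0.0674) and by -0.32 for Atg4a (adjusted p = 0.291), so no call differed between the probe sets. For Atg2b both probe sets lay among genes of chromosome 12 and gave 0.39 and 0.31 (adjusted p = 0.131 and 0.308).

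**Figure D2:**
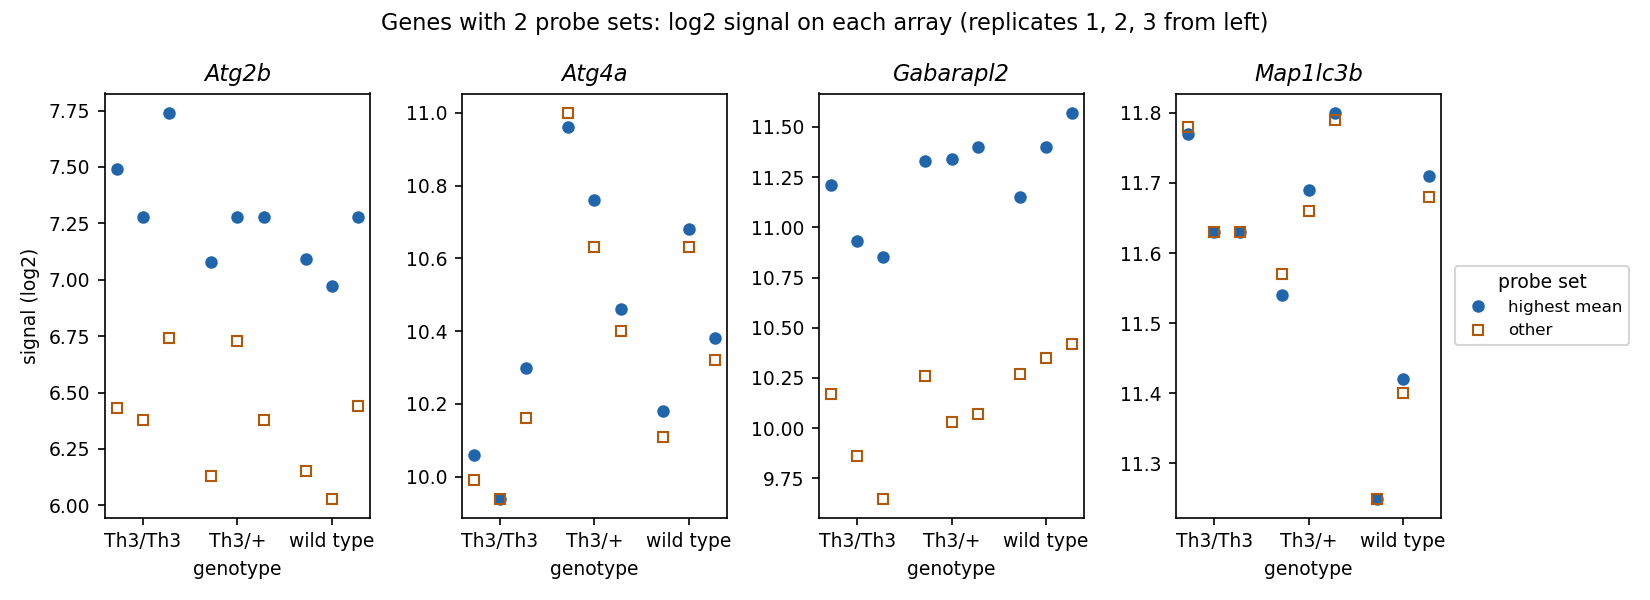
Log2 signal (vertical axis) on each array for the 4 autophagy genes with 2 probe sets, with filled circles for the probe set of highest mean and open squares for the other. The probe sets of Map1lc3b and Atg4a nearly coincide array by array, while those of Atg2b and Gabarapl2 run apart by up to 1.06 and 1.32, and vertical axes differ between panels.

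The ULK complex joins the kinases ULK1 and ULK2 to ATG13, ATG101 and FIP200 (Rb1cc1) and receives signals from the nutrient kinases. Atg101, whose product stabilises ATG13, held 8.82, 9.02 and 8.44 in Th3/Th3, 7.99, 7.91 and 8.01 in Th3/+, and 7.77, 8.01 and 8.01 in wild type. The Th3/Th3 arrays were above all 6 others, among which Th3/+ and wild type overlapped. Atg101 rose by 0.83 against wild type (SE 0.16, adjusted p = 0.00962, held under all 20 alternatives) and by 0.79 against Th3/+ (SE 0.16, adjusted p = 0.0186). The call against Th3/+ was lost under 6 alternatives, among them leaving out Th3/Th3 replicate 2 (adjusted p = 0.0573) or Th3/+ replicate 1, 2 or 3 (0.0503, 0.0786 and 0.0560).

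Its partner Atg13 held 8.04, 8.0 and 8.13 in Th3/Th3, 7.23, 7.89 and 7.69 in Th3/+, and 7.58, 7.29 and 7.71 in wild type. The Th3/Th3 arrays again lay above the others, but the difference of 0.53 from wild type did not pass the test (SE 0.18, adjusted p = 0.0986). It passed under 1 of 20 alternatives, leaving out Th3/+ replicate 1, with the difference unchanged at 0.53 (adjusted p = 0.0427, and up to 0.282 over all 20). The kinase genes were close to wild type, with differences of 0.06 for Ulk1 and 0.16 for Ulk2 (adjusted p = 0.855 and 0.390). Rb1cc1 spread widely among the Th3/Th3 arrays, at 8.17, 8.97 and 8.75 (difference from wild type 0.12, adjusted p = 0.795).

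Of the 6 genes of the PI3-kinase complex and its regulators, 0 passed the test in any of the 3 comparisons (limma, 2 at an unadjusted p under 0.05 in Th3/Th3 against wild type). Becn1, the scaffold Beclin 1, held 8.05 ± 0.12 in Th3/Th3, 8.18 ± 0.05 in Th3/+ and 8.11 ± 0.15 in wild type (SD, n = 3 each), and Pik3c3, the lipid kinase itself, 7.45 ± 0.49, 7.28 ± 0.24 and 7.10 ± 0.26. Pik3r4, the regulatory subunit, held 5.57, 5.91 and 6.09 in Th3/Th3, 5.38, 5.32 and 5.44 in Th3/+, and 5.59, 5.44 and 5.27 in wild type (difference of Th3/Th3 from wild type 0.42, adjusted p = 0.0780). Uvrag, a Beclin 1 partner, held 6.16, 6.97 and 6.94 in Th3/Th3, 5.65, 6.44 and 6.20 in Th3/+, and 6.04, 5.88 and 6.27 in wild type (difference 0.63, adjusted p = 0.156). For both genes Th3/Th3 replicate 1 was the lowest of its genotype and lay within the wild type range. Without that array the differences from wild type were 0.57 and 0.89 and passed the test (adjusted p = 0.0139 and 0.0329), as did the difference of Pik3r4 from Th3/+ (0.62, adjusted p = 0.0153). Each difference from wild type passed under only 3 of 20 alternatives, with adjusted p of up to 0.221 for Pik3r4 and 0.364 for Uvrag. That of Pik3r4 from Th3/+ also passed under 3 (up to 0.206). Uvrag starts 4.9 Mb from the adult beta-globin genes on chromosome 7, so strain variants linked to the Th3 allele and the allele itself cannot be told apart for this gene. Atg14 and Ambra1 differed from wild type by 0.20 and 0.18 (adjusted p = 0.526 and 0.585).

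ATG2 proteins carry lipid to the growing membrane, ATG9A (Atg9a) supplies its first vesicles, and the WIPI proteins, with Wdr45 (WIPI4) among them, bind PI3P. All 6 genes of this group had positive differences in Th3/Th3 against wild type, from 0.24 to 0.78, and 1 passed the test. Among all genes tested, 49.9% had a positive difference and 7.71% rose. Wdr45 held 9.06, 8.63 and 8.82 in Th3/Th3, 8.44, 8.38 and 8.38 in Th3/+, and 7.84, 8.10 and 8.26 in wild type. The 3 genotypes did not overlap, and the gene rose by 0.78 against wild type (SE 0.15, adjusted p = 0.0104, held under all 20 alternatives). Th3/+ lay between, 0.34 above wild type (95% interval -0.01 to 0.68, adjusted p = 1.00) and 0.44 below Th3/Th3 (adjusted p = 0.132). Wdr45 is X-linked, and Xist, the RNA of the inactive X, was high on Th3/Th3 replicates 1 and 2, Th3/+ replicate 2 and wild type replicate 1 (8.85 to 9.63, against 3.74 to 4.14 on the others). Among the arrays with low Xist, Wdr45 held 8.82 in Th3/Th3, 8.44 and 8.38 in Th3/+, and 8.10 and 8.26 in wild type. Atg4a and Tfe3 lie on the X chromosome as well, and the part of the arrays with high Xist in their differences was not tested. Wipi2, which recruits ATG16L1, held 9.60, 9.08 and 9.34 in Th3/Th3, 9.26, 9.20 and 9.25 in Th3/+, and 8.79, 8.74 and 9.13 in wild type (difference of Th3/Th3 from wild type 0.45, adjusted p = 0.108).

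Among the roles the conjugation system held the most calls in Th3/Th3 against wild type, 3 of 5 genes, where 7.71% of all genes tested rose. Groups this small were not compared by a test, and the call of Atg12 was lost under 13 of 20 alternatives. ATG7 and ATG3 act as activating and conjugating enzymes for ATG8 proteins, ATG12 is joined to ATG5 by ATG7 and ATG10, and ATG12-ATG5 with ATG16L1 directs the last step. Of the 5 genes tested, Atg3, Atg5 and Atg12 rose in Th3/Th3 against wild type. Atg7 and Atg16l1 did not pass the test (differences -0.04 and 0.15, adjusted p = 0.863 and 0.645). Atg10 stayed below the filter on all 9 arrays, at 3.54 to 3.82.

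Atg3 held 7.84, 8.77 and 8.31 in Th3/Th3, 7.31, 7.61 and 7.53 in Th3/+, and 7.18, 7.35 and 7.09 in wild type. It rose by 1.10 against wild type (SE 0.22, adjusted p = 0.0102), with the widest spread of the called genes in Th3/Th3 (SD 0.46). Atg5 held 6.57, 6.81 and 6.55 in Th3/Th3, 6.10, 6.01 and 6.10 in Th3/+, and 5.5, 6.10 and 5.59 in wild type, and rose by 0.92 (SE 0.15, adjusted p = 0.00490). For both genes the Th3/Th3 arrays were above all others, and the call against wild type held under all 20 alternatives. Against Th3/+ the differences of 0.82 and 0.58 did not pass the test (adjusted p = 0.0510 and 0.0548). The difference of Atg3 passed under 8 of 20 alternatives (adjusted p of 0.0122 to 0.141 over all 20), among them leaving out Th3/Th3 replicate 1 (0.0122). That of Atg5 passed under 5 (0.0156 to 0.168), among them leaving out wild type replicate 2 (0.0156).

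Atg12 held 8.04, 7.79 and 8.15 in Th3/Th3, 7.76, 7.68 and 7.71 in Th3/+, and 7.61, 7.53 and 7.52 in wild type. The 3 genotypes did not overlap, and Atg12 rose by 0.44 against wild type (SE 0.12, adjusted p = 0.0471). This call was lost under 13 of 20 alternatives, among them leaving out Th3/Th3 replicate 1 or 3 (adjusted p = 0.0852 and 0.125), Th3/+ replicate 1, 2 or 3 (0.0558, 0.0782 and 0.0775) or wild type replicate 1, 2 or 3 (0.0921, 0.128 and 0.124).

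ATG4 proteases expose the end of ATG8 proteins for conjugation and release them from membranes afterwards. Atg4d held 7.92, 7.87 and 7.93 in Th3/Th3, 8.24, 8.40 and 8.49 in Th3/+, and 8.58, 8.23 and 8.97 in wild type. The Th3/Th3 arrays lay below all others and close together (SD 0.03), while the wild type arrays spread widely (SD 0.37). Atg4d fell by 0.68 against wild type (SE 0.18, adjusted p = 0.0378). The call was lost under 11 of 20 alternatives, among them leaving out Th3/Th3 replicate 1, 2 or 3 (adjusted p = 0.0686, 0.10 and 0.0832), Th3/+ replicate 2 or 3 (0.0629 and 0.0575) or wild type replicate 1 or 3 (0.0967 and 0.0995). Atg4a held 10.06, 9.94 and 10.30 in Th3/Th3, 10.96, 10.76 and 10.46 in Th3/+, and 10.18, 10.68 and 10.38 in wild type. Its Th3/Th3 arrays lay below those of Th3/+ but overlapped with wild type, and neither difference passed the test (-0.62 from Th3/+, adjusted p = 0.0602, and -0.31 from wild type, adjusted p = 0.302). Atg4b differed from wild type by -0.09 (adjusted p = 0.767), and Atg4c stayed below the filter on all 9 arrays, at 2.82 to 3.40.

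TFEB and TFE3 are transcription factors that switch on lysosomal and autophagy genes. Their own transcripts did not pass the test in any comparison. Tfeb was dim in all genotypes, at 4.79 ± 0.29 in Th3/Th3, 4.67 ± 0.04 in Th3/+ and 4.81 ± 0.17 in wild type (SD, n = 3 each), and Tfe3 held 6.31 ± 0.31, 6.29 ± 0.08 and 6.00 ± 0.24 (difference of Th3/Th3 from wild type 0.31, adjusted p = 0.305).

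**Figure D3:**
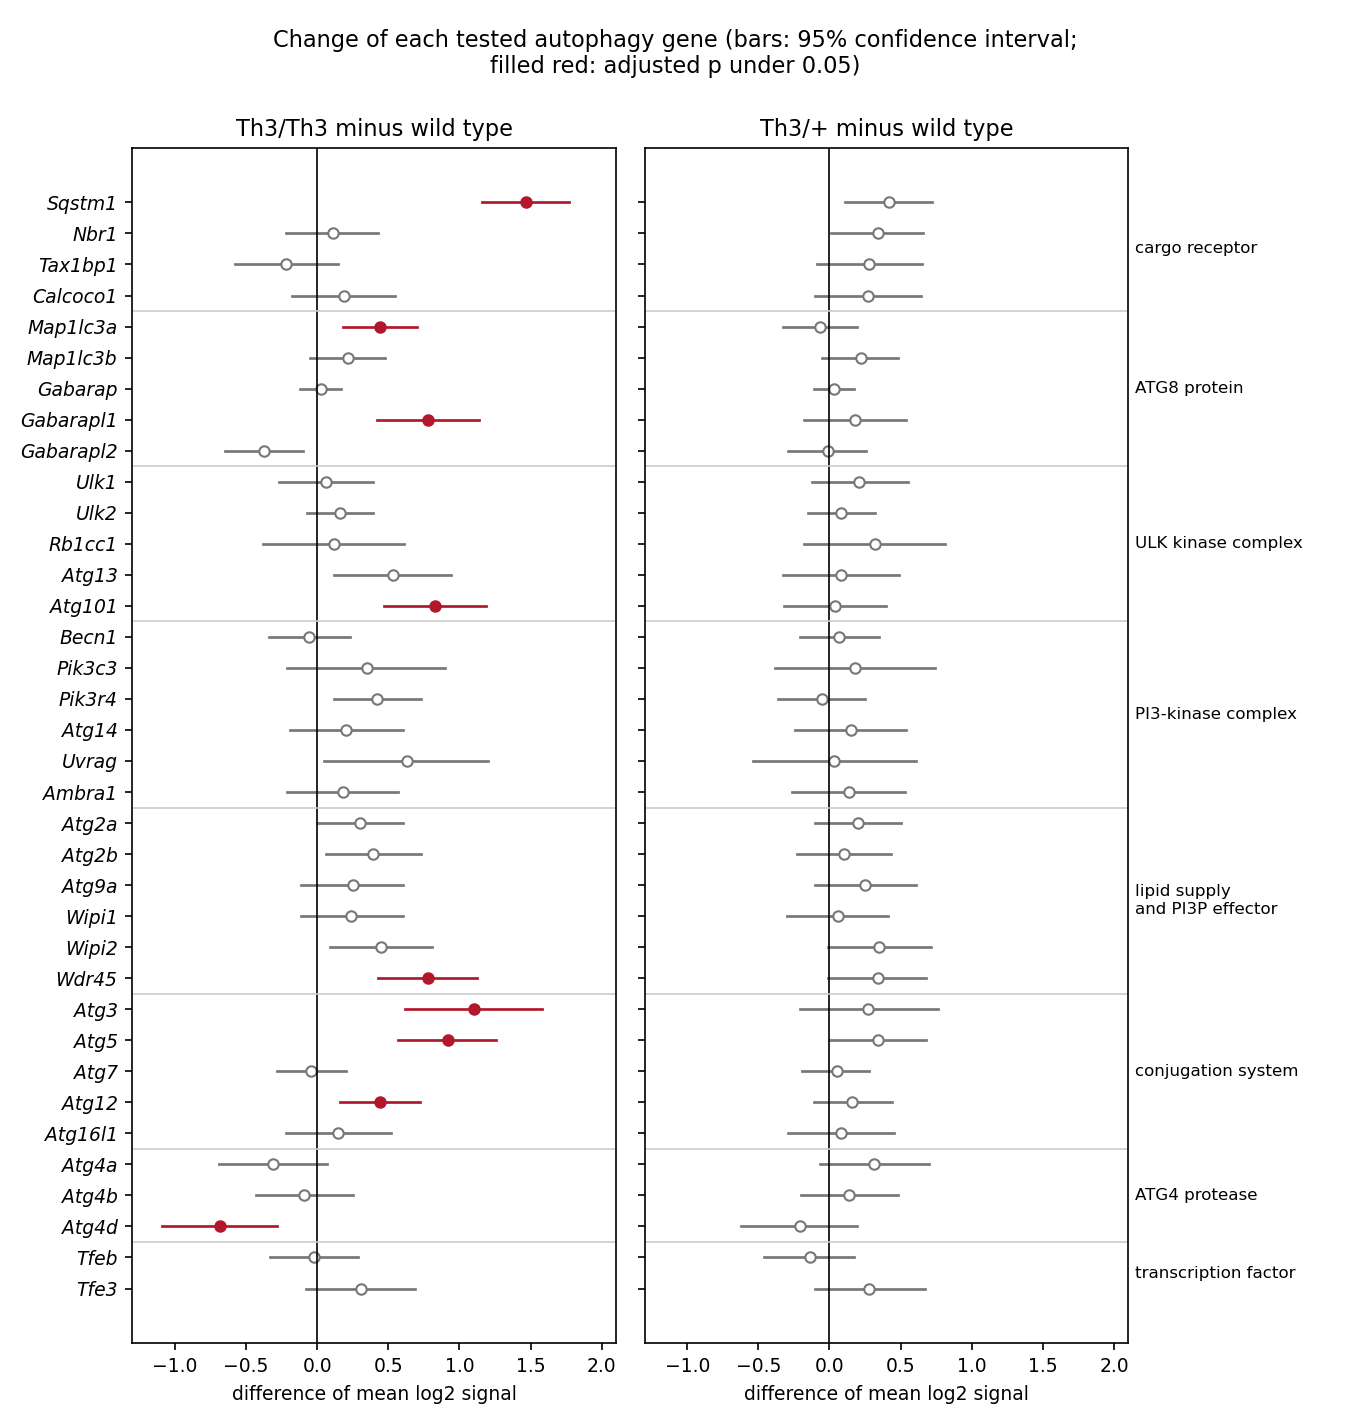
Difference of mean log2 signal (horizontal axis) for each of the 36 autophagy genes tested, for Th3/Th3 minus wild type on the left and Th3/+ minus wild type on the right, grouped by role. Bars are 95% confidence intervals and filled red points passed an adjusted p of 0.05. On the left 8 genes are called higher and Atg4d lower, and on the right no gene is called while 31 of the 36 points lie above 0.

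In Th3/+ against wild type, 0 of the 36 genes passed the test in either direction (limma, 2 at an unadjusted p under 0.05, Sqstm1 and Nbr1), as against 0.0155% higher and 0.0% lower among all genes tested. The differences were small, between -0.21 and 0.42, and 31 of the 36 were positive, against 52.2% of all genes. The median was 0.16 over the 36 genes and 0.01 over all genes. In 9 genes every Th3/+ array lay above every wild type array (25.0% of the 36, against 4.5% of all genes), and in 0 every Th3/+ array lay below (3.26% of all genes). On the probe set of its own chromosome Gabarapl2 did lie below, at 10.26, 10.03 and 10.07 in Th3/+ and 10.27, 10.35 and 10.42 in wild type (difference -0.23, adjusted p = 1.00), which makes that count 1. The 9 genes that lay above were Sqstm1, Nbr1, Calcoco1, Rb1cc1, Ulk1, Atg9a, Wipi2, Wdr45 and Atg12, named after their values were seen. In the same count for Th3/Th3 against wild type, 9 genes lay above (15.5% of all genes) and 1 below (12.4% of all genes). There too Gabarapl2 lay below on the probe set of its own chromosome, which makes the second count 2. The comparisons share the wild type arrays.

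**Figure D4:**
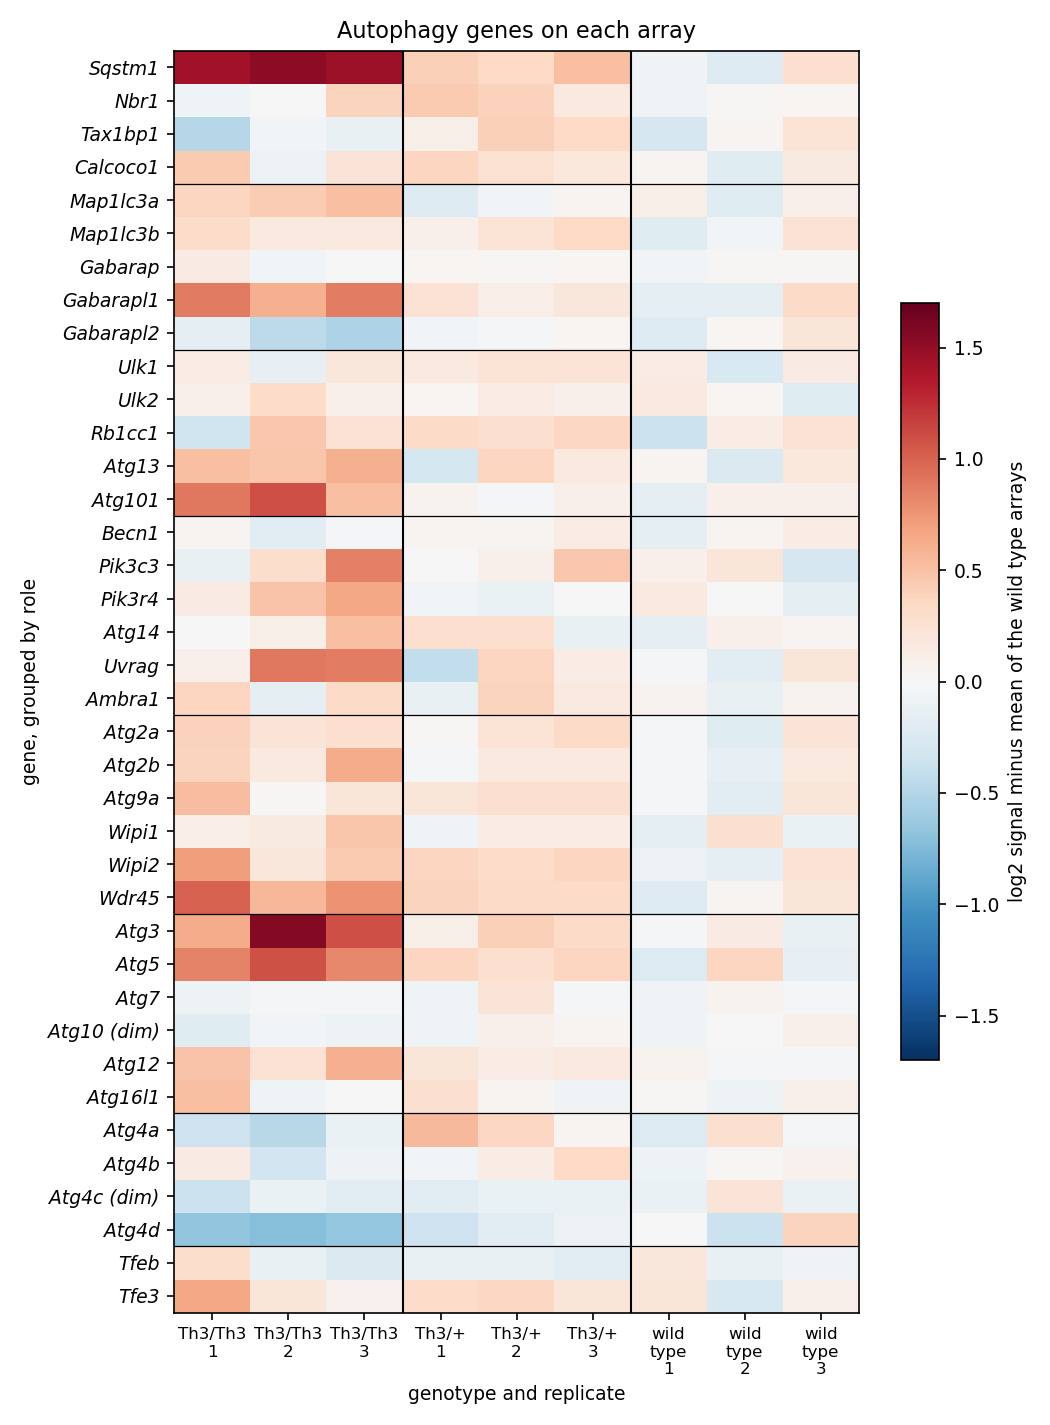
Log2 signal of the 38 measured autophagy genes (rows, grouped by role) minus the mean of the wild type arrays, on each array (columns, Th3/Th3, Th3/+ and wild type with replicates 1 to 3). Red is above and blue below the wild type mean, and genes marked dim did not pass the filter. Sqstm1 is the darkest row in the columns of Th3/Th3 replicates 1 and 3 and Atg3 in that of replicate 2, and Uvrag, Pik3r4 and Pik3c3 are lowest of their Th3/Th3 values in replicate 1.

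In Th3/Th3 against Th3/+, Sqstm1, Atg101 and Map1lc3a rose and 0 genes fell, where 4.5% of all genes tested rose and 3.68% fell. The median difference over the 36 genes was 0.07. In 10 genes every Th3/Th3 array lay above every Th3/+ array (13.3% of all genes), and in 4 below (10.5% of all genes). On the probe set of its own chromosome Gabarapl2 overlapped, which makes the second count 3. Those below were Tax1bp1, Gabarapl2, Atg4a and Atg4d, named after their values were seen, of which 0 passed the test (limma, adjusted p = 0.113, 0.127, 0.0602 and 0.170).

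The promoters of the 33 autophagy genes with a promoter window were read for motifs of factors known to act on autophagy or stress genes. Those of Sqstm1, Atg3 and Atg5 are shown because these genes rose most. The windows are RefSeq's (GRCm38.p6), from 250 bases before to 50 after the gene's start, chr11:50210771-50211070 on the minus strand for Sqstm1, chr16:45158579-45158878 on the plus strand for Atg3 and chr10:44268089-44268388 on the plus strand for Atg5. Capitals mark matches to any motif searched.
Sqstm1: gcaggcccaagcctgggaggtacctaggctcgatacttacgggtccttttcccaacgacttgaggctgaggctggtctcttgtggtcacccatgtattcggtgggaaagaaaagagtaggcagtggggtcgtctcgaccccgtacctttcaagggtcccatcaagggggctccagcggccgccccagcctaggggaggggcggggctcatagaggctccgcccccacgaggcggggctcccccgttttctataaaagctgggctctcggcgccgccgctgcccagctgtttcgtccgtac
Atg3: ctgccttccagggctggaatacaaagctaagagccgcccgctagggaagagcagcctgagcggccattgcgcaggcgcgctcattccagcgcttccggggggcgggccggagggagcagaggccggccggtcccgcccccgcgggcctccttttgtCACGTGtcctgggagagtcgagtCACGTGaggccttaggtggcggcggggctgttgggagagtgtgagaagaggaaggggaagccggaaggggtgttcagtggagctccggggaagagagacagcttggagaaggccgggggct
Atg5: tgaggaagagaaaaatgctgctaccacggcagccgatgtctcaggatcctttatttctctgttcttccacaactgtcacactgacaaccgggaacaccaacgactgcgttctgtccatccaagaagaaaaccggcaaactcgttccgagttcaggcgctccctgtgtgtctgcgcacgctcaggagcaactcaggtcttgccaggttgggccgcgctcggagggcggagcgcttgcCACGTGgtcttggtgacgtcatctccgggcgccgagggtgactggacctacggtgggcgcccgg
The capitals in Atg3 (2 matches) and Atg5 (1 match) are the E-box CACGTG, the core that MiT/TFE and other factors bind. It stands in 4 of the 33 autophagy genes with a promoter window (12.1%, Atg3, Atg5, Atg7 and Atg14) and in 8.1% of all genes with one. The window of Sqstm1 held no match. The antioxidant response element core TGACNNNGC stood in 4 of the 33 (12.1%, Atg13, Map1lc3b, Tax1bp1 and Ulk2, against 14.0% of all genes). AGATAA, the core of a GATA site, stood in 2 (6.1%, Atg4a and Atg4d, against 12.7%). The palindromic CLEAR element, which contains the E-box, the heat shock element and the ATF4 motif core TGATGNAA stood in 0 of the 33 (0.4%, 0.7% and 4.5% of all genes). Both strands were searched, and a match or its absence describes only these letters in this window.

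Genes that act around the core pathway were taken as 4 further lists, to be read against the 7.71% of all genes tested that rose and the 5.37% that fell in Th3/Th3 against wild type. Of 15 selective receptors outside the 39 genes, 3 rose (20.0%) and 3 fell (20.0%) in Th3/Th3 against wild type (median 0.05). Bnip3, a receptor on mitochondria, rose by 2.14, whereas Ncoa4, the ferritin receptor, fell by 0.82, Bnip3l, the mitochondrial receptor of reticulocytes, by 0.61 and Sec62, a receptor on the endoplasmic reticulum, by 0.65 (adjusted p = 0.00212, 0.00284, 0.00290 and 0.0181). The calls of Bnip3, Ncoa4 and Bnip3l held under all 19 alternatives run on the lists, and that of Sec62 was lost without wild type replicate 2 or 3 (adjusted p = 0.0694 and 0.0695).

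Of 23 nutrient-sensing regulators (mTORC1, AMPK, the Rag GTPases and their partners), 6 rose (26.1%) and 2 fell (8.7%), against 7.71% and 5.37% of all genes (median 0.15). The Ragulator complex anchors the Rag GTPases and mTORC1 at the lysosome, and its subunit genes Lamtor1, Lamtor3 and Lamtor5 rose by 1.18, 0.74 and 0.70 (adjusted p = 0.00764, 0.00314 and 0.00673), while Lamtor4, also named after its values were seen, differed by 0.46 and overlapped with wild type (adjusted p = 0.273). Flcn, the folliculin gene, whose product acts on RagC and RagD, rose by 0.97 (adjusted p = 0.00599). The other genes called were chosen after their values were seen: Rragc and Lamtor2 rose by 0.67 and 0.51, while Rragd and Rptor, the gene of the mTORC1 subunit raptor, fell by 0.85 and 0.34. The paralogs Rragc and Rragd held 6.77 and 6.15 in Th3/Th3, against 6.10 and 7.0 in wild type (means, n = 3 each). Distance to the adult beta-globin genes was looked up for the 39 genes only. Linkage of Lamtor1 or other genes of the lists to the Th3 allele was therefore not tested, and no alternative bears on it. The calls of Lamtor1, Lamtor3, Lamtor5, Flcn and Rragc held under all 19 alternatives, whereas those of Lamtor2, Rragd and Rptor were lost under 4, 7 and 14 of them (adjusted p of up to 0.0744, 0.104 and 0.136). For Rragd these included leaving out Th3/Th3 replicate 1 or 2 (0.0777 and 0.0713), wild type replicate 1 or 3 (0.102 and 0.104) or both arrays that stood apart (0.0986).

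Of 19 genes of autophagosome fusion and maturation, 2 rose (10.5%) and 2 fell (10.5%), against 7.71% and 5.37% of all genes (median 0.22). The SNARE gene Ykt6 rose by 0.80 and the HOPS tether gene Vps33a by 0.71, and the SNARE gene Vamp8 fell by 0.39 and Sh3glb1, which binds Beclin 1 through UVRAG, by 0.61 (adjusted p = 0.0196, 0.0390, 0.00933 and 0.00555). Of 13 other early factors, 3 rose (23.1%) and 1 fell (7.7%), against 7.71% and 5.37% of all genes (median 0.19). Trp53inp1, a p53-induced protein that binds ATG8 proteins, rose by 1.13, Tmem41b by 0.93 and Rab33b, a small GTPase that binds ATG16L1, by 0.45, while Vmp1 fell by 0.46 (adjusted p = 0.000658, 0.00712, 0.0276 and 0.0411). TMEM41B and VMP1 are partner lipid scramblases of the endoplasmic reticulum. The distance of Tmem41b from the adult beta-globin genes was likewise not looked up, so its linkage to the Th3 allele was not tested. In these lists the calls of Vamp8, Sh3glb1, Trp53inp1 and Tmem41b held under all 19 alternatives, and those of Ykt6, Vps33a, Rab33b and Vmp1 were lost under 4, 8, 5 and 10, single arrays left out among them (adjusted p of up to 0.0723, 0.119, 0.0985 and 0.132). In Th3/+ against wild type, 0 genes of the 4 lists passed the test (limma, 2, 0, 2 and 0 at an unadjusted p under 0.05).

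**Figure D5:**
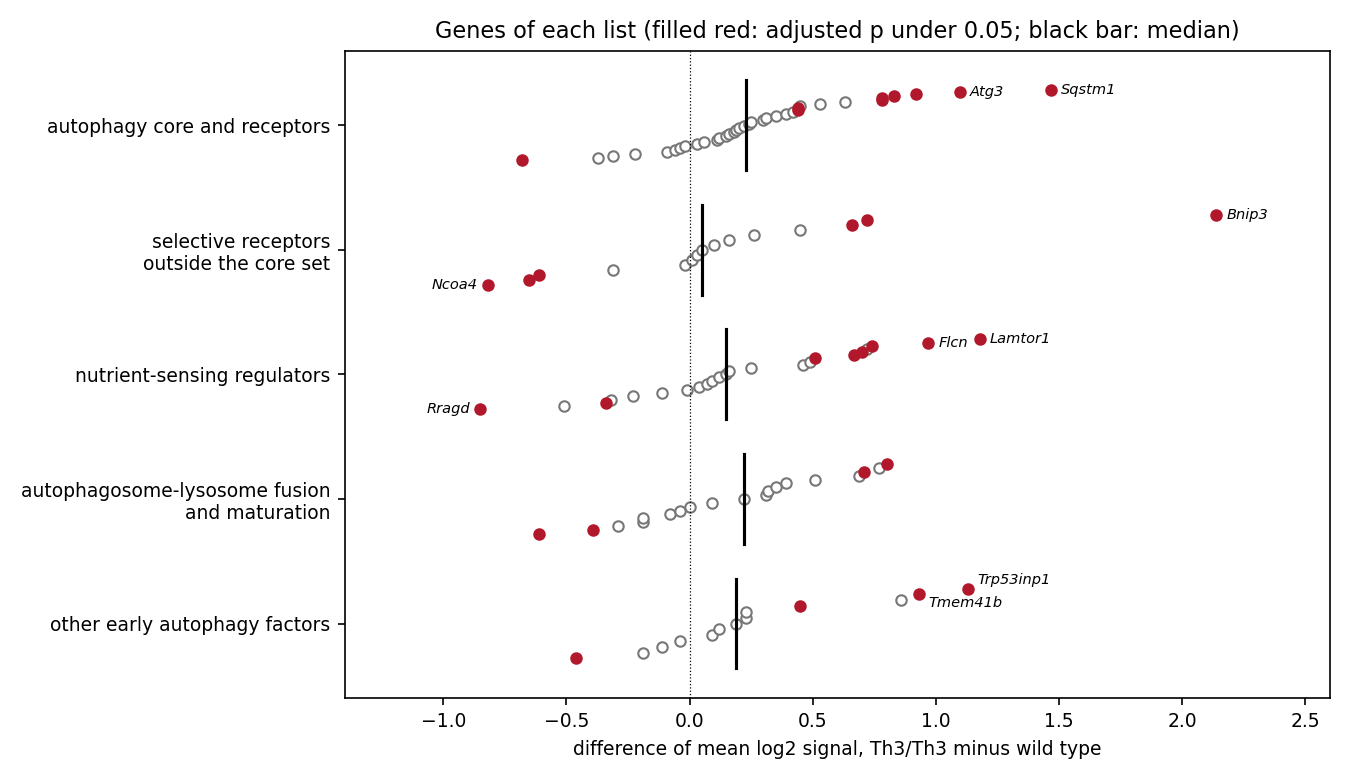
Difference of mean log2 signal between Th3/Th3 and wild type (horizontal axis, Th3/Th3 minus wild type) for the 36 autophagy genes tested and for 4 lists around them. Each point is a gene, filled red where the adjusted p was under 0.05, and the black bar is the median of the list, from 0.05 for the selective receptors to 0.23 for the 36 genes. Bnip3 and Sqstm1 lie farthest to the right.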

How the data were processed

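Array signals of 9 samples were taken from the deposited table of log2 values, 1 per probe set and array. Per the submitters' processing notes the authors used MAS5, with no version given. The steps for background and scale were not given in the sources used here. Array medians lay between 4.97 and 5.05, so the values were used as deposited. No read depth exists, and 3 arrays per genotype limit the precision.

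The 6617 probe sets before the first annotated identifier were taken as controls and left out. Genes were named from the platform annotation, by probe sets with a single symbol (21789), of which 21698 matched RefSeq (GRCm38.p6) by gene identifier with 0 symbols changed. Probe sets above the 40th percentile of the array (4.52 to 4.62) on at least 3 arrays were kept, 17742 in all.

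limma 3.58.1 (R 4.3.3) fitted 1 mean per genotype to all 9 arrays (eBayes with a trend), with Benjamini-Hochberg adjustment over the kept probe sets, two-sided, called under 0.05. An exact permutation test of 3 against 3 cannot go below 0.1. The procedure was run on simulated data with independent noise between arrays and with probe sets raised in Th3/Th3 only. That setting holds no falls and no order by replicate, so it does not measure the error rate in these data. Members and lists were chosen with earlier results of these data known. Values are printed per array for members called in any comparison and for the 4 largest other changes in Th3/Th3 against wild type, and for others where said. From each further list up to 4 called genes are named by smallest adjusted p. Filters, normalization, the trend, array weights, a replicate block, omitted arrays and the choice of probe set were varied.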

Additional observations from a re-analysis of the deposited data

How the results depend on the processing

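The rise of Sqstm1, Atg101, Atg3, Atg5 and Wdr45 in Th3/Th3 against wild type held under all 20 alternatives. Each of these genes has a single probe set, so picking the probe set by chromosome repeats the main fit for them and could not differ. In Th3/+ against wild type, 0 of the 36 genes were called under any alternative. No called difference changed sign. Counts that moved by over 1.5 times were as follows, with the cause not tested. The count of genes lower in Th3/Th3 against wild type (1) was 0 without the filter, with median centring and with only the 2 genotypes compared, and 2 with quantile normalization and with array weights. Higher calls numbered 6 to 9 under the alternatives that keep all arrays and 9 without both arrays that stood apart. In Th3/Th3 against Th3/+, genes higher (3) numbered 6 with the stricter filter, 5 without the mean-variance trend, 6 with the replicate block and 7 with array weights, and genes lower (0) numbered 1 with the stricter filter, the replicate block and array weights. Leaving out 1 array gave 5 to 9 higher and 0 to 1 lower against wild type, and 1 to 5 higher against Th3/+.

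Array weights, leaving out Th3/Th3 replicate 1 and leaving out both arrays that stood apart brought Pik3r4 (adjusted p = 0.0316, 0.0139 and 0.0206), Uvrag (0.0428, 0.0329 and 0.00914) and Gabarapl2 (0.0475, 0.0341 and 0.0458) past the test in Th3/Th3 against wild type. Over all probe sets, calls in Th3/+ against wild type (5) numbered 10 with the stricter filter, 22 with array weights, 3 without both arrays and 0 with only the 2 genotypes compared, and 1 to 12 when 1 array was left out. In Th3/Th3 against Th3/+ (1290) they numbered 798 with only the 2 genotypes compared and 585 to 1412 when 1 array was left out, and in Th3/Th3 against wild type (2181) 1444 to 2310.

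In the further lists, nutrient-sensing regulators lower (2) numbered 1 without the filter, with median centring, the replicate block and array weights, 0 without both arrays or with only the 2 genotypes, and 0 to 2 when 1 array was left out. Fusion genes higher (2) numbered 1 without the filter and with quantile normalization, 5 without both arrays and 0 to 3 when 1 array was left out. Other early factors lower (1) numbered 0 without the filter, with the replicate block, without both arrays and with only the 2 genotypes, and 0 to 1 when 1 array was left out, and those higher (3) 2 to 4. Selective receptors higher (3) numbered 1 to 4 and lower (3) 2 to 3 when 1 array was left out.

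The replicate numbers are shared by the genotypes. Deviations of same-numbered Th3/Th3 and wild type arrays correlated at 0.193, 0.056 and 0.251, and those of Th3/+ and wild type arrays at 0.13, -0.125 and 0.355. Those of Th3/Th3 and Th3/+ arrays correlated at 0.279, 0.067 and 0.165. Differently numbered arrays of unlike genotypes correlated at -0.352 to 0.252, with most values negative. Deviations from the genotype mean cancel out within a genotype, so positive values for same-numbered arrays force negative ones elsewhere on balance. The negative values are therefore not a separate comparison. The position on the second principal component also fell with the replicate number in each genotype. The labels give no pairing beyond the number, and the main fit holds no replicate term. With the replicate block 8 of the 36 genes were higher and 1 lower in Th3/Th3 against wild type, and 6 higher and 1 lower (Tax1bp1, adjusted p = 0.0218) against Th3/+, where Atg3, Atg5 and Gabarapl1 (0.0234, 0.0418 and 0.0406) joined the 3 called without it. The choice of the probe set on the gene's own chromosome was added after seeing the data and changed no count of calls, while the counts of genes whose arrays lay wholly below changed through Gabarapl2, to 2 in Th3/Th3 against wild type (1), 1 in Th3/+ against wild type (0) and 3 in Th3/Th3 against Th3/+ (4).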
